A study of Mus musculus with 6 samples.

Results

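The genes described here are 8 regulators or markers with a described role in mammary stem or basal progenitor cells, Procr, Sox9, Sox10, Snai2, Bcl11b, Id4, Tspan8 and Axin2, taken by symbol from the 34590 genes of the deposited count table. All 8 were in the table, and all 8 were among the 17345 genes that passed the filter on low counts. The RNA-seq experiment compared contralateral glands of 3 host mice. In each host, the left number 4 gland held a graft of WT.EGFP+ mammary epithelium and the right number 4 gland held a graft of Adamts18-/-.EGFP+ epithelium. All WT grafts lay on the left side, so that genotype and side cannot be told apart. Donors were on the C57BL/6JOlaHsd background and all carried a transgene that drives EGFP from the chicken β-actin promoter, and the hosts were WT females whose fat pads had been cleared of their own epithelium, so any stroma in a gland was WT on both sides. The Adamts18-/- allele, which was carried in the germline, lacks exons 8 and 9, which encode the zinc-binding catalytic site of this secreted metalloproteinase. By the paper, the 3 pairs came from separate experiments and 3 donors. Differences between mice here therefore cannot be told apart from those between donors or experiments. The age of the hosts at harvest, and which donor gave which graft, were not given in the sources used here.

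The mammary ducts are a bilayer of luminal cells, some of which can secrete milk while others sense hormones, and of basal cells, most of which are contractile myoepithelial cells. The ability to regrow a ductal tree in a cleared fat pad, the operational test of a mammary stem cell, lies mainly in the basal layer. Among the regulators, Sox10, Sox9 and Snai2 are transcription factors of plastic, stem-like states, Id4 is a helix-loop-helix inhibitor of DNA binding that is high in basal cells, and Bcl11b is a zinc finger factor of quiescent basal cells that is better known for committing precursors to the T cell lineage. Procr, the protein C receptor, and Tspan8, a tetraspanin, are surface proteins that mark small basal subsets. Axin2 is a scaffold of the complex that degrades β-catenin and is itself induced by Wnt signaling.

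RefSeq windows of 300 bases on GRCm38.p6, from 250 bases before to 50 bases after the annotated start, were given for 5 of the 8 genes, namely Procr, Bcl11b, Id4, Tspan8 and Axin2. The windows of Id4, Tspan8 and Axin2 are printed because these genes followed unlike courses across the glands: Id4 kept close to the basal genes, Tspan8 spread widely and Axin2 stayed nearly level. Capitals mark the core letters CTTTGA or CTTTGT, a match to the element bound by the TCF/LEF factors that carry the Wnt signal, searched on both strands.
Id4 (chr13:48260866-48261165, plus strand): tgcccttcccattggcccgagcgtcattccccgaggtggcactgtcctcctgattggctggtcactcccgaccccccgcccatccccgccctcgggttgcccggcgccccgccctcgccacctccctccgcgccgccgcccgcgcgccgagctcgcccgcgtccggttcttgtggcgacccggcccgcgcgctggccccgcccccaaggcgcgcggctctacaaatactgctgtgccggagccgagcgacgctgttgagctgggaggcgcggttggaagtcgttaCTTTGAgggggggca
Tspan8 (chr10:115817034-115817333, plus strand): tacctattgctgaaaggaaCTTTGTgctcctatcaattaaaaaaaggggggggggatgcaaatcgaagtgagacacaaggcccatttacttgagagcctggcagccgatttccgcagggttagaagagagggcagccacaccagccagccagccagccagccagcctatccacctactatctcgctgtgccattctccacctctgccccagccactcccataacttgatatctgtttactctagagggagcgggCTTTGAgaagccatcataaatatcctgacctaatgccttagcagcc
Axin2 (chr11:108920099-108920398, plus strand): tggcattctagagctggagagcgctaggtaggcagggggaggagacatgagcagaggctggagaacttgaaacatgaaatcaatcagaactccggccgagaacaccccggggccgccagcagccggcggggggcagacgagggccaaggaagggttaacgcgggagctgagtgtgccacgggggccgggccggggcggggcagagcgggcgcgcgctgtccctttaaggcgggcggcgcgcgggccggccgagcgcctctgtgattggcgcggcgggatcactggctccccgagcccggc
The core letters were in 3 of the 5 windows, those of Bcl11b, Id4 and Tspan8, and in 31.2% of all 32851 windows of the same length. In Id4 the match began at base 36 counted from 1 at the start, and Tspan8 held one at base 5 and another at base -231. The Axin2 window held none, which says only that these letters are not in this window. The letters CACCTG, an E-box read by Snail-family factors such as Snai2, were in 20.2% of all windows and in 0 of the 5. The motifs share no letters in these windows. The reads were counted by the submitters on the mm9 build, so these positions serve the sequences only.

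The 6 libraries held between 53875123 and 71595924 counts, and a gene with 0 counts could have been at up to 3 counts, or 0.0430 to 0.0574 CPM (library sizes adjusted by TMM factors), by counting error alone. Adamts18 was at 3.61, 9.92 and 6.80 CPM in WT glands (here and below in the order of mice 1, 2 and 3) and at 2.75, 4.87 and 3.29 CPM in Adamts18-/- glands, lower in all 3 pairs (log2 fold change -0.83, SE 0.19, unadjusted p = 0.00922 and adjusted p = 0.987 by edgeR). The remaining counts were not assigned to exons here. By the labels the RNA came from GFP-positive cells taken by FACS (sorting by fluorescence), whereas in the paper it is engrafted glands that were profiled. The data held stromal markers in plenty: the summed level of 8 fibroblast genes was 8925 to 12305 CPM and that of 8 adipocyte genes 5874 to 15534 CPM, against 1412 to 2707 CPM for 24 pan-epithelial genes. The libraries are therefore called glands, and in such mixed RNA fewer cells of a type and less RNA per cell cannot be told apart. On the first principal component, which held 60.4% of the variance, the glands of mouse 3 stood apart at 41.6 (WT) and 87.2 (Adamts18-/-), with the other 4 glands between -42.0 and -20.9. The summed level of 8 B cell genes was 156 and 827 CPM in the WT and Adamts18-/- gland of mouse 3 and 11.2 to 19.3 CPM in the other 4 glands.

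The first question was how abundant each regulator was in WT glands. Per kilobase of exon, with lengths from GENCODE M21, Procr and Sox10 led with means of 32.9 and 25.9 CPM per kb over the 3 WT glands. Snai2 at 9.70, Tspan8 at 7.79, Sox9 at 5.80, Id4 at 3.56 and Axin2 at 2.70 CPM per kb followed, and Bcl11b came last at 0.678 CPM per kb. Snai2 and Tspan8, Tspan8 and Sox9, Sox9 and Id4, and Id4 and Axin2 each overlapped over the 3 WT glands. Within each mouse the order nevertheless held for the first 3 of these pairs, while Id4 was above Axin2 in mice 2 and 3 and below it in mouse 1. The ranges of Procr and Sox10, Sox10 and Snai2, and Axin2 and Bcl11b did not overlap. Procr is also made by endothelium, and Sox10 by Schwann cells and melanocytes. The summed level of 10 endothelial genes was 758 to 1252 CPM, that of 9 Schwann cell genes was 307 to 753 CPM, and that of 6 melanocyte genes was 3.12 to 4.65 CPM.

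The main question was whether loss of Adamts18 in the epithelium changed these regulators. None of the 8 passed the thresholds of the study (a fold change below 0.8, or above its inverse, at an unadjusted p under 0.05). The test was the quasi-likelihood test of edgeR, which here compared the glands within each mouse. Over all tested genes, 1.84% were called lower and 1.17% higher. Of the 8 members, 0 were at an unadjusted p under 0.05 and 0 at an adjusted p under 0.05, a level that 0% of all genes reached (670 genes were at an unadjusted p under 0.05, and DESeq2 placed 71 genes at an adjusted p under 0.05). DESeq2 called 1 member, Sox10, and limma-voom called 2, Snai2 and Id4, all lower, where these tools called 1.71% and 1.98% of all genes lower. The fitted change was below 0 for 6 of the 8, with a median log2 fold change of -0.36 against 0.00065 over all genes. Snai2 and Id4 were lower in the Adamts18-/- gland of all 3 mice, 2 of 8 genes where 12.7% of all genes did so, and 0 of the 8 were lower in every Adamts18-/- gland than in every WT gland, where 2.63% of all genes were. Single mice decided much of this. Without mouse 1, Sox9, Sox10, Snai2, Id4 and Tspan8 were called lower, 5 of the 8 genes, where 2.73% of all genes were. Without mouse 3, 0 were called, where 1.65% of all genes were called lower and 581 of 17383 higher, and 268 genes were at an adjusted p under 0.05. The log2 fold change without mouse 3 took the other sign for Procr (0.019), Bcl11b (-0.36), Tspan8 (0.036) and Axin2 (-0.089).

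**Figure D1:**
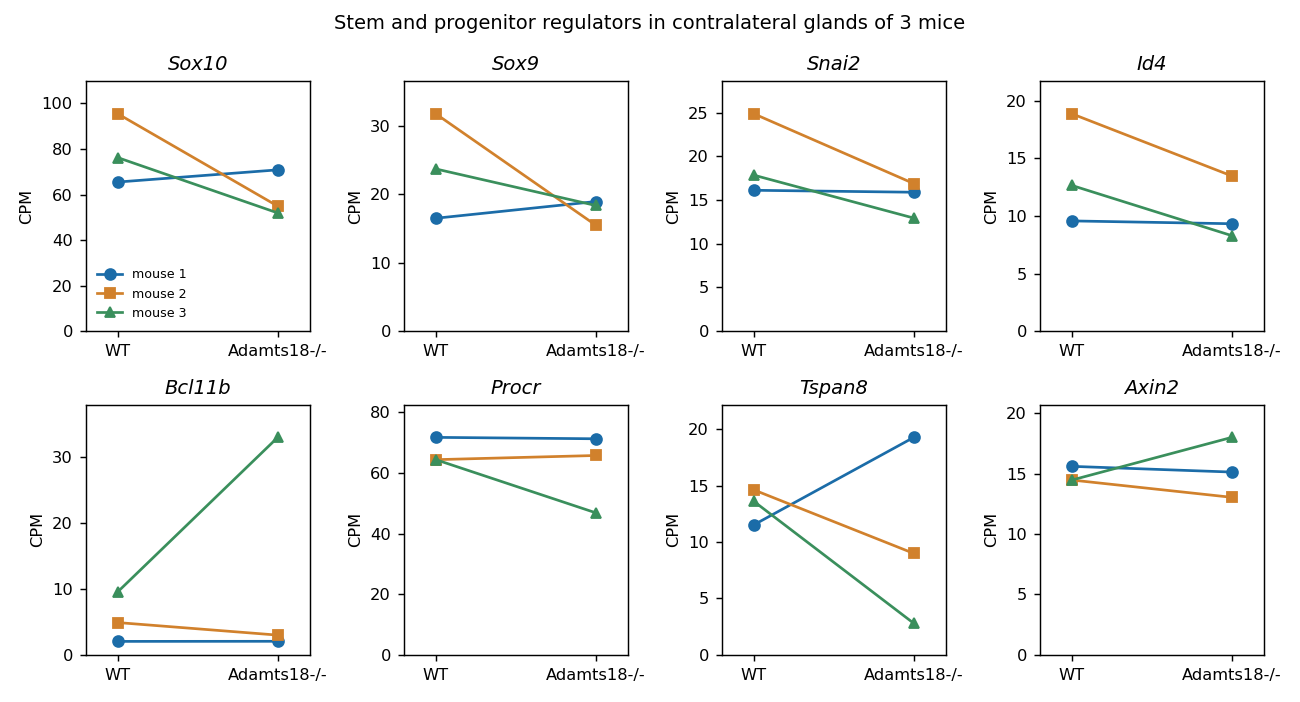
Each panel plots 1 gene in CPM (vertical axis, from 0) in the WT and the Adamts18-/- gland of each mouse, with a line joining the glands of 1 mouse. Most lines fall in mice 2 and 3 and run level or rise in mouse 1, and Bcl11b rises steeply in mouse 3 alone.

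Sox10, a factor that marks stem-like fetal and adult mammary cells, was at 65.5, 95.5 and 76.3 CPM in WT glands and at 70.8, 54.9 and 51.9 CPM in Adamts18-/- glands. The Adamts18-/- glands were low in mice 2 and 3 and slightly above WT in mouse 1, so the groups overlapped. The fitted log2 fold change was -0.41 (SE 0.19, 95% interval -0.91 to 0.08, unadjusted p = 0.0847, edgeR). Sox9, its relative that works with Snai2 in conferring stem-like properties, moved in the same direction as Sox10 within each mouse. It was at 16.5, 31.8 and 23.7 CPM in WT and at 18.9, 15.5 and 18.4 CPM in Adamts18-/- glands. The widest gap was in mouse 2, whose WT gland was the highest and whose Adamts18-/- gland the lowest of the 6. The fitted log2 fold change was -0.40 (SE 0.25, 95% interval -1.06 to 0.25, unadjusted p = 0.171, edgeR).

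Snai2, which encodes the transcriptional repressor Slug, was at 16.1, 24.9 and 17.9 CPM in the WT glands and at 15.9, 16.9 and 12.9 CPM in the Adamts18-/- glands of mice 1, 2 and 3. The contralateral glands of mouse 1 were level, and those of mice 2 and 3 differed by -0.56 and -0.46 on the log2 scale. Id4, which restrains other helix-loop-helix factors, was at 9.58, 18.9 and 12.7 CPM in WT and at 9.33, 13.5 and 8.30 CPM in Adamts18-/- glands, with log2 differences of -0.04, -0.49 and -0.61. These were the members nearest to the threshold. Their log2 fold changes were -0.35 (SE 0.14) for Snai2 and -0.38 (SE 0.15) for Id4, with unadjusted p = 0.0559 and unadjusted p = 0.0564 by edgeR's test across all genes and 95% intervals that ended at 0.01 and 0.02. For Id4, mouse 2 was highest on both sides. In edgeR's test of the mouse term its adjusted p was 0.123, and 0 of the 8 members were called, against 0.628% of all genes. DESeq2's likelihood ratio test of the mouse term called 19.2% of all genes, and Id4 (adjusted p = 0.0174) and Bcl11b (adjusted p = 1.23e-06) among the members.

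**Figure D2:**
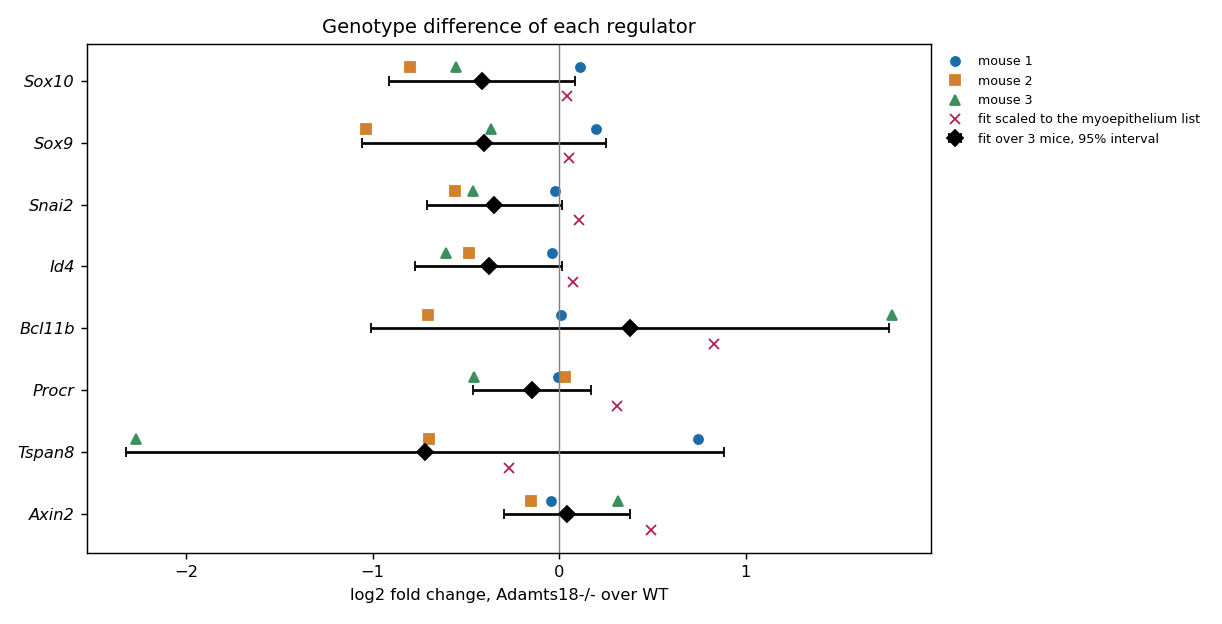
For each gene the diamond and bar give the fitted log2 fold change (Adamts18-/- over WT, horizontal axis) and its 95% interval over 3 mice, the colored symbols the log2 difference within each mouse, and the cross the fitted value when libraries were scaled to the myoepithelium list. Every interval crosses 0, and the crosses of Sox10, Sox9, Snai2, Id4 and Procr lie at or above 0.

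Epithelial markers were lower beside these genes. Of 11 myoepithelial genes, among them the smooth muscle actin Acta2 and the basal keratin Krt14, 10 passed the thresholds and were lower, with a median log2 fold change of -0.54, and so were 7 of 24 pan-epithelial genes, with a median of -0.38. No gene of either list was called higher, and the shares of all genes were 1.84% lower and 1.17% higher. The summed level of the myoepithelium list was 1333, 2275 and 1356 CPM in WT glands and 1079, 1646 and 902 CPM in Adamts18-/- glands. Thus the Adamts18-/- gland stood lower in each mouse, most in mice 2 and 3. The pan-epithelial sum moved by -0.05, -0.74 and -0.51 on the log2 scale in mice 1, 2 and 3, the secretory luminal sum by 0.10, -0.94 and -0.64, and the hormone-sensing luminal sum by -0.26, -0.49 and -0.64. With mouse 1, 2 or 3 left out, 8, 7 and 7 of the 11 myoepithelial genes were called lower. For the 24 pan-epithelial genes the counts were 23, 2 and 5, and for all genes 481 of 17596, 214 of 17507 and 286 of 17383. Without the mouse as a block 1 myoepithelial and 4 pan-epithelial genes were called lower, and 125 of 17345 genes in all.

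**Figure D3:**
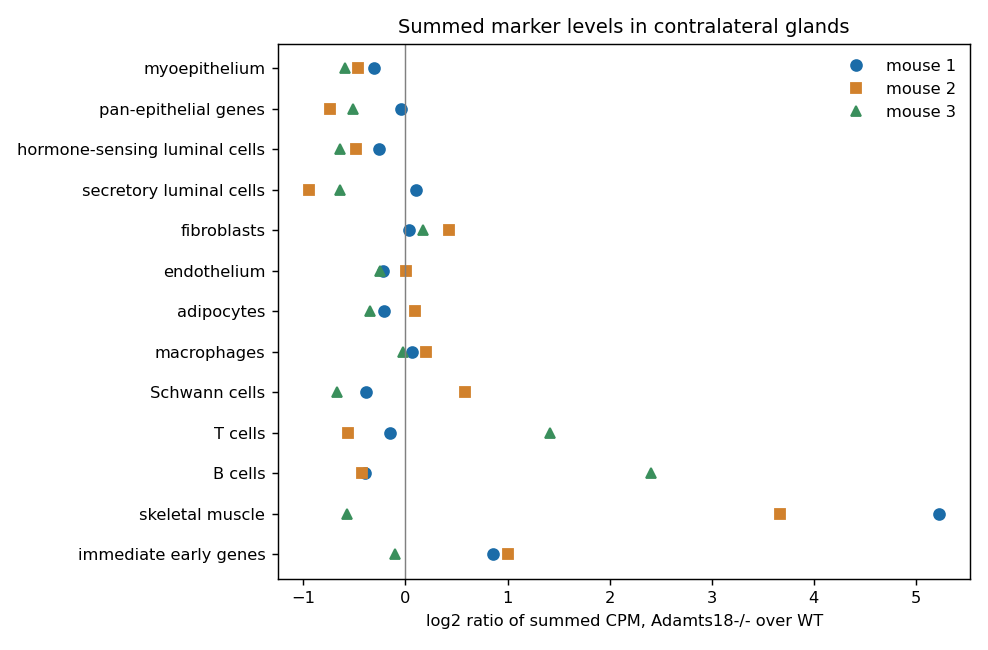
The log2 ratio of summed CPM (Adamts18-/- over WT, horizontal axis) is plotted for each marker list (vertical axis) with 1 symbol per mouse. The epithelial lists lie near or below 0 in all 3 mice, the T and B cell lists lie above 0 in mouse 3 alone, and skeletal muscle genes were 37.4 and 12.7 times higher in the Adamts18-/- glands of mice 1 and 2.

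Id4 and Snai2 kept a narrower range against the basal genes than in CPM, and Sox10 and Sox9 did not. Id4 counts were 0.718% to 0.934% of the counts of the myoepithelium list over the 6 glands, a 1.30-fold range, while Id4 in CPM had a 2.28-fold range. Snai2 was 1.03% to 1.47% of that list, a 1.44-fold range against 1.92-fold in CPM. Sox10 had a 1.97-fold range against that list and 1.84-fold in CPM, and Sox9 a 2.16-fold range against 2.05-fold in CPM. In mouse 2 the ratio to that list still differed by -0.33 for Sox10 and -0.57 for Sox9 on the log2 scale. Against the secretory luminal list the ranges were 1.40-fold for Sox10, 1.48-fold for Sox9, 1.32-fold for Snai2 and 1.47-fold for Id4. Snai2 thus had a narrower range against that list than against the basal genes, and Id4 a wider one. Sox10 had a 2.61-fold range against the Schwann cell list. Against the melanocyte list, whose sum was only 3.12 to 4.65 CPM, its range was 1.72-fold. With libraries scaled to the myoepithelium list, the log2 fold changes were 0.04 for Sox10, 0.05 for Sox9, 0.11 for Snai2, 0.08 for Id4, 0.31 for Procr, 0.49 for Axin2, 0.83 for Bcl11b and -0.27 for Tspan8. That scaling moved the median of all genes to 0.45. It shifts all genes by nearly the same amount, so the 6 of 8 members below the median were bound to stay there.

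Bcl11b differed in its course. It was at 2.05, 4.91 and 9.54 CPM in the WT glands and at 2.07, 3.00 and 33.0 CPM in the Adamts18-/- glands of mice 1, 2 and 3. The Adamts18-/- gland of mouse 3 stood far above the other 5, with 2028 counts against 108 to 537, and the groups overlapped (log2 fold change 0.38, SE 0.53, 95% interval -1.01 to 1.77, unadjusted p = 0.509, edgeR). T cell genes moved with it. The summed level of 10 of them, led by the kinase gene Lck, was 47.0, 89.2 and 231 CPM in the WT glands and 42.4, 60.3 and 616 CPM in the Adamts18-/- glands, and none of the 10 was at 0 in every library. Bcl11b counts were 4.13% to 5.50% of the counts of that list in all 6 glands, a 1.33-fold range, whereas Bcl11b in CPM had a 16.1-fold range. With libraries scaled to the T cell list, a choice made after its counts had been seen, the log2 fold change was 0.13 (unadjusted p = 0.862, edgeR). Of 10714 genes with a mean of at least 10 CPM, the closest to Bcl11b over the 6 glands were Cd8b1, Runx3 and Gimap4, with Pearson r of 0.9998, 0.999 and 0.998. These r are a description only, as Bcl11b was at 9.54 and 33.0 CPM in mouse 3 and at 2.05 to 4.91 CPM in the other glands. Its paralog Bcl11a, a factor of B cells and luminal progenitors, was also highest in mouse 3, at 7.89 CPM in WT and 26.7 CPM in Adamts18-/-, against 2.66 to 4.03 CPM in the other 4 glands.

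**Figure D4:**
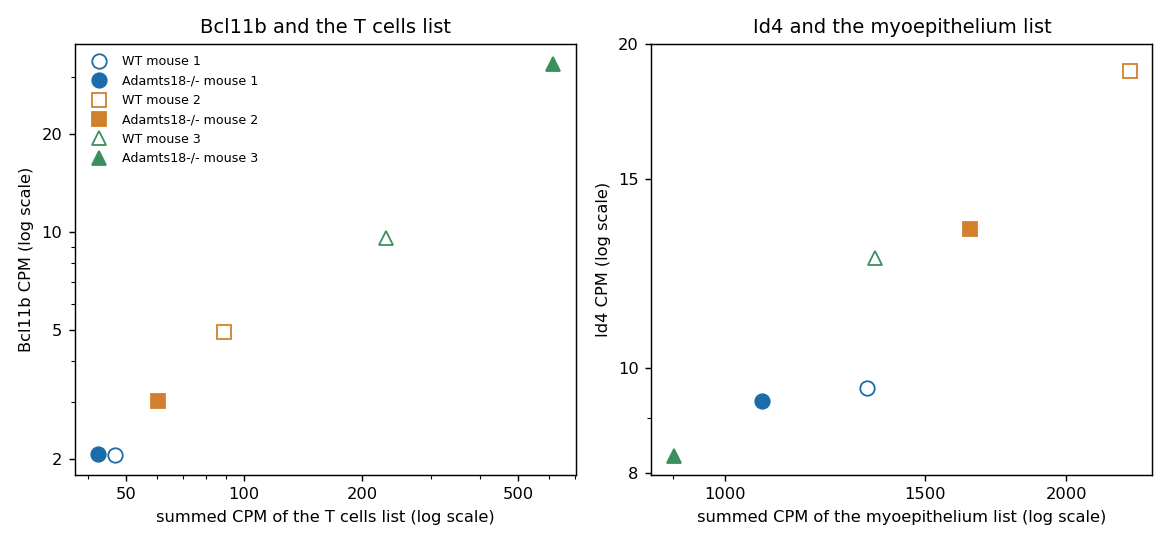
The left panel plots Bcl11b CPM against the summed CPM of 10 T cell genes and the right panel Id4 CPM against that of 11 myoepithelial genes, 1 symbol per gland, open for WT and filled for Adamts18-/-, all axes on a log scale. In both panels the gene rises with its list over glands of both genotypes.

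Of the surface markers, Procr was the steadier. It was at 71.7, 64.4 and 64.4 CPM in WT and at 71.2, 65.7 and 46.8 CPM in Adamts18-/- glands, so the glands of mice 1 and 2 were level and the Adamts18-/- gland of mouse 3 was lowest (log2 fold change -0.15, SE 0.12, 95% interval -0.46 to 0.17, unadjusted p = 0.284, edgeR). Over the 6 glands Procr had a 1.38-fold range against the endothelial list, 2.33-fold against the myoepithelium list and 1.53-fold in CPM. Tspan8, whose product marks a quiescent basal subset, was at 11.5, 14.6 and 13.6 CPM in WT and at 19.3, 8.99 and 2.80 CPM in Adamts18-/- glands. It was level among WT glands and went up in mouse 1, down in mouse 2 and furthest down in mouse 3, by 0.74, -0.70 and -2.27 on the log2 scale. The fitted log2 fold change was -0.72 (SE 0.61, 95% interval -2.32 to 0.88, unadjusted p = 0.294, edgeR) and was 0.04 without mouse 3. The interval runs from a fold of 0.200 to 1.84, so these 3 pairs left its direction unresolved. In mouse 3 the pan-epithelial sum differed by -0.51 and the B cell sum by 2.40 on the same scale, and the part of either in the Tspan8 value was not tested.

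Axin2, the transcriptional readout of canonical Wnt signaling, was at 15.6, 14.5 and 14.5 CPM in WT and at 15.1, 13.0 and 18.0 CPM in Adamts18-/- glands. The WT glands were close together, and the Adamts18-/- glands were slightly lower in mice 1 and 2 and higher in mouse 3. The log2 fold change was 0.04 (SE 0.13, unadjusted p = 0.767, edgeR), and its 95% interval held folds from 0.814 to 1.30. With libraries scaled to the myoepithelium list Axin2 was called higher (log2 fold change 0.49, unadjusted p = 0.0237, edgeR), as were 61.7% of all genes, whose median was then 0.45. Of 9 tested genes in a list of 11 canonical Wnt targets, 0 were called in either direction by edgeR, and 0 were at an unadjusted p under 0.05, with a median log2 fold change of -0.19. DESeq2 called 1 of them lower, Lgr5, and edgeR without mouse 1 called 2 lower, Lgr5 and Wif1. The 3 with the smallest p were the feedback inhibitor Nkd1 (log2 fold change -0.27, unadjusted p = 0.0757), the R-spondin receptor Lgr5 (-1.03, unadjusted p = 0.0967) and the cyclin gene Ccnd1 (-0.19, unadjusted p = 0.107), all by edgeR. Sp5 had 0 counts in every gland and Notum was below the filter. Lef1 and Tcf7, which are also T cell genes, were at 37.1 and 144 CPM in the Adamts18-/- gland of mouse 3 and at no more than 6.52 and 40.4 CPM elsewhere.

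Lgr5, which marks stem cells in many epithelia and is shared by the Tspan8-positive subset, was at 4.17, 12.2 and 6.25 CPM in WT and at 5.45, 3.73 and 1.92 CPM in Adamts18-/- glands. Like Tspan8, it was higher in the Adamts18-/- gland of mouse 1 and lower in those of mice 2 and 3. That course was not particular to Lgr5 and Tspan8. Sox9, Sox10, the basal keratin gene Krt5 and the secretory luminal sum went the same ways in mice 1, 2 and 3.

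Other genes of mammary stem and progenitor cells gave more calls. Of 17 such genes, 5 were called lower and 0 higher by edgeR, where 1.84% of all genes were called lower and 1.17% higher. Their median log2 fold change was -0.31, and 0 were at an adjusted p under 0.05. Prom1, a surface protein of hormone-sensing luminal cells, was at 94.3, 43.8 and 93.9 CPM in WT and at 70.1, 25.6 and 47.2 CPM in Adamts18-/- glands, lower in each mouse (log2 fold change -0.73, SE 0.13, unadjusted p = 0.00261). Dll1, a Notch ligand of basal cells, was at 26.9, 61.9 and 26.6 CPM in WT and at 21.6, 35.8 and 19.4 CPM in Adamts18-/- glands (-0.52, SE 0.12, unadjusted p = 0.00729). Trp63, which encodes the basal master factor p63 and belongs to the myoepithelium list too, fell by 0.37 (SE 0.11, unadjusted p = 0.0193), and Tbx3, a T-box factor needed for the mammary bud, by 0.42 (SE 0.14, unadjusted p = 0.0309). Elf5, the factor of secretory luminal progenitors, fell by 0.57 (SE 0.20, unadjusted p = 0.0388) but was level in mouse 1, at 78.8 and 79.2 CPM. Without mouse 1, 9 of the 17 were called lower, where 2.73% of all genes were. Without mouse 2 or without mouse 3 there were 2 calls, Dll1 and Prom1. In those fits 214 of 17507 and 286 of 17383 genes were called lower. Without the mouse as a block 0 of the 17 were called, where 125 of 17345 genes were called lower. With libraries scaled to the pan-epithelial genes 0 were called lower, but so were only 32 of all 17345 genes, whose median was then 0.44. The integrins and Cd24a used to sort basal and luminal cells were not called, with log2 fold changes of -0.15 for Itga6, -0.05 for Itgb1, 0.21 for Itgb3, -0.04 for Itga2 and -0.07 for Cd24a.

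**Figure D5:**
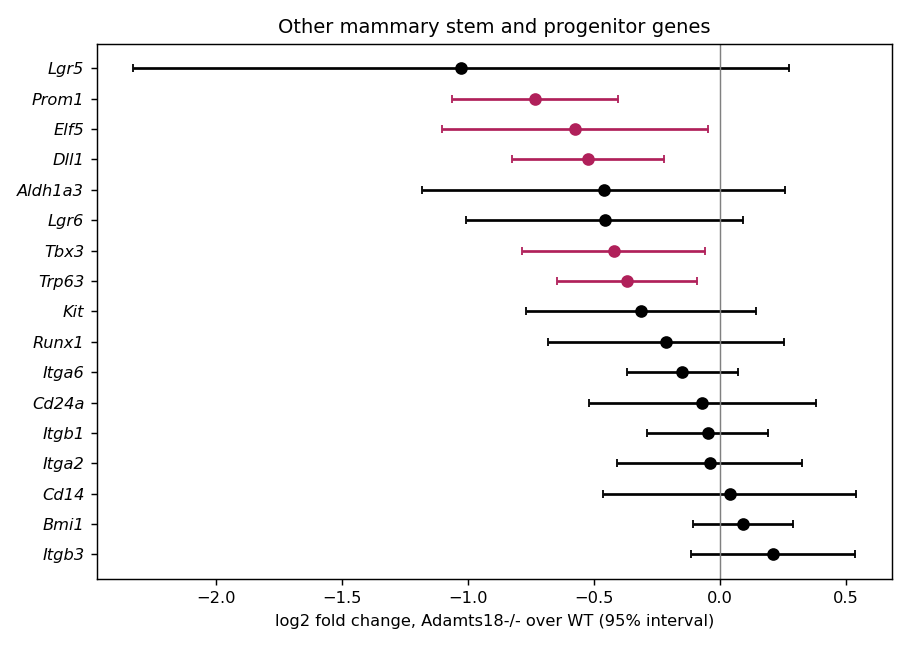
Fitted log2 fold changes (Adamts18-/- over WT, horizontal axis) with 95% intervals are plotted for 17 other stem and progenitor genes, the 5 past the thresholds in red. Prom1, Elf5, Dll1, Tbx3 and Trp63 lie wholly below 0.

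Close relatives of the regulators, 8 in all, gave 1 call, where 1.84% of all genes were called lower and 1.17% higher. Snai3, a relative of Snai2, was at 0.229, 0.261 and 0.480 CPM in WT and at 0.612, 0.578 and 2.02 CPM in Adamts18-/- glands, higher in every Adamts18-/- gland than in any WT gland although low throughout (log2 fold change 1.57, SE 0.28, unadjusted p = 0.00323 and adjusted p = 0.987, edgeR). In mice 1, 2 and 3 the skeletal muscle sum differed by 5.23, 3.67 and -0.57 on the log2 scale. The T cell sum differed by -0.15, -0.57 and 1.41, and the B cell sum by -0.40, -0.42 and 2.40. What part these had in the Snai3 values was not tested. Snai1, the other Snail-family gene, gave -0.14 (SE 0.25, unadjusted p = 0.608, edgeR). Sox8, which belongs to the Sox9 and Sox10 group, gave -0.25 (SE 0.17, unadjusted p = 0.196). The Id genes other than Id4 were not called, with log2 fold changes of -0.18 for Id1, -0.03 for Id2 and -0.06 for Id3. Id2 went opposite ways, by 0.44, -0.70 and 0.16 in mice 1, 2 and 3. Axin1, the constitutively expressed relative of Axin2, gave -0.0013 (SE 0.087).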

How the data were processed

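RNA from 6 glands of 3 mice was sequenced with single-end reads of 85 bp. The table the authors deposited gives raw read counts for each gene, and the submitters' processing notes name bcl2fastq 2.18, TopHat2 2.0.11, featureCounts 1.6.2, edgeR and the mm9 build. The paper describes a correction for the mice before samples were compared. Total counts per gland lay between 53875123 and 71595924, and the median biological coefficient of variation was 16.3%.

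Here the counts were filtered (filterByExpr), TMM-scaled and tested in edgeR 4.0.16 (R 4.3.3) with its quasi-likelihood test, genotype and mouse as terms, and Benjamini-Hochberg adjustment over 17345 genes. Mouse numbers are in the labels, and the paper describes contralateral pairs. Contralateral glands deviated together (r = 0.512, 0.505 and 0.639 across genes after removal of group means). p-values of the genotype test set the difference between contralateral glands against the spread of that difference over these 3 hosts. That spread was estimated partly from all genes. log2 CPM used a prior count of 2. Cell type and gene lists were described by counts and medians, without a set test. The members and lists were chosen with earlier results of these data known. Named besides the members were Adamts18, their relatives, genes of the stem and Wnt lists past the thresholds or with the 3 smallest p, and the 3 genes most correlated with each member (mean CPM at least 10). Some genes chosen this way are not reported. Bcl11a, Lef1, Tcf7, the integrins, Cd24a, Sp5 and Notum were singled out after their values were seen. The scripts were tested on simulated data. Alternatives used DESeq2 1.42.0, limma-voom 3.58.1, other scalings and filters, no block, and each mouse left out.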

Additional observations from a re-analysis of the deposited data

How the results depend on the processing

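Of the member results under the planned and added alternatives, 79 stayed on their side of the thresholds with the same sign, 12 passed them and 14 changed sign. With libraries scaled to the pan-epithelial genes, where the median of all genes was 0.44, 32 genes were lower and 2060 higher, and log2 fold changes were 0.29 for Procr, 0.032 for Sox9, 0.021 for Sox10, 0.086 for Snai2, 0.057 for Id4 and 0.80 for Bcl11b, which passed. Scaled to the myoepithelium list, with a median of 0.45, 28 were lower and 10707 higher, with 0.31 for Procr, 0.053 for Sox9, 0.040 for Sox10, 0.11 for Snai2, 0.075 for Id4 and 0.49 for Axin2, and Procr and Axin2 were at an unadjusted p of 0.0487 and 0.0237, with Procr under the fold threshold. In both, 6 of 8 members lay below the median of all genes, which such a scaling can hardly change because it shifts all genes nearly alike. Without a filter 352 genes were higher, Snai2 (-0.36) and Id4 (-0.39) passed, and 1106 genes differed between mice. By DESeq2 340 were higher and Sox10 (-0.41) passed, and by limma-voom 345 were higher and Snai2 (-0.36) and Id4 (-0.40) passed, as against 203 by edgeR. Without the mouse as a replicate block 125 genes were lower, against 319 with it, and no member changed its call, although Bcl11b moved from 0.38 to 1.21. DESeq2's test of the mouse term called 3326 genes, against 109 by edgeR.

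With 1 mouse left out, the number of genes lower ran from 214 to 481, the number higher from 182 to 581, and 48 genes differed between mice without mouse 3. Log2 fold changes ran from -0.23 to 0.019 for Procr, -0.70 to -0.085 for Sox9, -0.68 to -0.22 for Sox10, -0.51 to -0.24 for Snai2, -0.36 to 0.95 for Bcl11b, -0.55 to -0.26 for Id4, -1.48 to 0.036 for Tspan8 and -0.089 to 0.14 for Axin2. Without mouse 1, Sox9, Sox10, Snai2, Id4 and Tspan8 all passed the thresholds, at the lowest of these values, and without mouse 3 Procr, Bcl11b, Tspan8 and Axin2 took the other sign, at 0.019, -0.36, 0.036 and -0.089. The causes were not tested.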

Other observations

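The genes closest to each regulator in log2 CPM were listed over the 6 glands, as a description only, since the glands come from 3 mice and share their mixture of cells. For Snai2 they were Fat1, Trp53bp2 and Tfap2c (Pearson r of 0.997, 0.994 and 0.991), for Id4 Agrn, Kctd4 and Boc (0.991, 0.990 and 0.989), for Sox10 Sertad4, Muc20 and Shank2 (0.989, 0.984 and 0.983), and for Sox9 Ercc3, Ltf and Tfap2a (0.992, 0.974 and 0.972). Tfap2a and Tfap2c encode AP-2 factors of epithelia, and Ltf encodes the milk protein lactoferrin. For Procr they were Tubb4a, Abca5 and Erlin2 (0.997, 0.997 and 0.996), for Tspan8 Ltbp1 and Glod4 (0.989 and 0.986), and for Axin2 Arpc3, Tmem18 and Iffo1 (0.995, 0.987 and 0.983).

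Among lists not described above, 4 of 9 immediate early genes (Fos, Junb, Egr1 and Ier2) were called higher in Adamts18-/- glands and 0 lower, and their summed level differed by 0.86, 1.01 and -0.10 on the log2 scale in mice 1, 2 and 3. Of 9 Schwann cell genes Egr2 alone was called, higher, and it is also an early response gene. Of 4 tested melanocyte genes Mlana alone was called, lower. None of the 7 macrophage, 10 endothelial, 8 fibroblast, 8 adipocyte, 8 skeletal muscle, 10 T cell and 8 B cell genes tested was called in the main edgeR fit (TMM scaling, filtered counts, mouse as a block). Without mouse 3 edgeR called all 8 skeletal muscle and all 9 immediate early genes higher, and 1 T cell gene (Cd3e) and 1 B cell gene (Blk) lower. Without mouse 2 it called 2 endothelial genes (Tie1 and Esam), 1 adipocyte gene (Lep) and 4 Schwann cell genes lower. DESeq2 called 6 skeletal muscle genes and 1 fibroblast gene higher, limma-voom 5 B cell genes and 1 skeletal muscle gene, and edgeR without the block 6 skeletal muscle genes.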
